A study of Homo sapiens with 4 samples.

Results

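The transforming growth factor beta (TGF-beta) and bone morphogenetic protein (BMP) signalling genes were followed in RD cells, a fusion-negative rhabdomyosarcoma cell line, before and after selection for resistance to vincristine. The group was set by gene name and comprised 59 genes for ligands, receptors, extracellular binding proteins, SMAD proteins, their inhibitors and target genes. Of these, 55 were among the 18375 genes of the deposited table, and BMP5, BMP6, BMPER and INHBB were not analysed here. The series holds 4 poly(A)-selected RNA libraries. The first 2 came from parental RD cells, labelled wild type and untreated. The other 2 came from vincristine-resistant RD cells of the same wild-type genotype. Vincristine binds tubulin and blocks the mitotic spindle. Selection began at 1 to 1.5 nM, a dose that killed 80 to 90% of the cells, and went on in steps of 10 to 20% for 9 to 12 months, until the IC50 had risen at least 100-fold. The labels do not say whether the replicates were separate cultures or selections, or whether the resistant cells are one clone. The p-values therefore reflect differences among these libraries alone, and those may be purely technical. The resistant libraries are labelled with vincristine, without a statement on drug in the medium when RNA was taken.

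Ligands of this family are secreted dimers that bring together type I and type II serine/threonine kinase receptors. The type II receptor activates the type I receptor, which phosphorylates receptor SMADs. SMAD2 and SMAD3 carry TGF-beta, activin and myostatin signals, SMAD1, SMAD5 and SMAD9 carry BMP signals, and SMAD4 joins both. In skeletal muscle, myostatin and activin restrain growth, and BMP signals keep precursor cells from differentiating, in part through the ID proteins, which block myogenic helix-loop-helix factors.

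Changes ran in both directions, and the widest were among secreted proteins, one BMP receptor and a matrix target gene. TGFBI, BMP4 and BMP7 were more than 10-fold higher in resistant cells, TGFB2 was 5.42-fold higher, and BMPR1B, FST and THBS1 were the genes that lost most. Of the 55 genes, 30 were higher, 19 lower and 6 not called at a Benjamini-Hochberg adjusted p below 0.05 (limma on log2 of the normalized count plus 1). Over all 18330 genes tested, 66.9% were called, 32.7% higher and 34.2% lower. A change of at least 2-fold was called for 23 of the 55 genes (16 higher, 7 lower), against 15.5% of all genes tested (8.96% higher, 6.57% lower). Changes of 4-fold or more were called for 9 of them, against 5.1% of all genes. The median log2 fold change was 0.19 in the group and 0.00 over all genes. The genes were chosen with earlier results of these data known, so these shares describe the group and test nothing. In 53 of the 55 genes the libraries of the groups did not overlap, which held for 82.1% of all genes tested. The plot of values in each library shows BMP8A and ID4 as the exceptions.

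**Figure D1:**
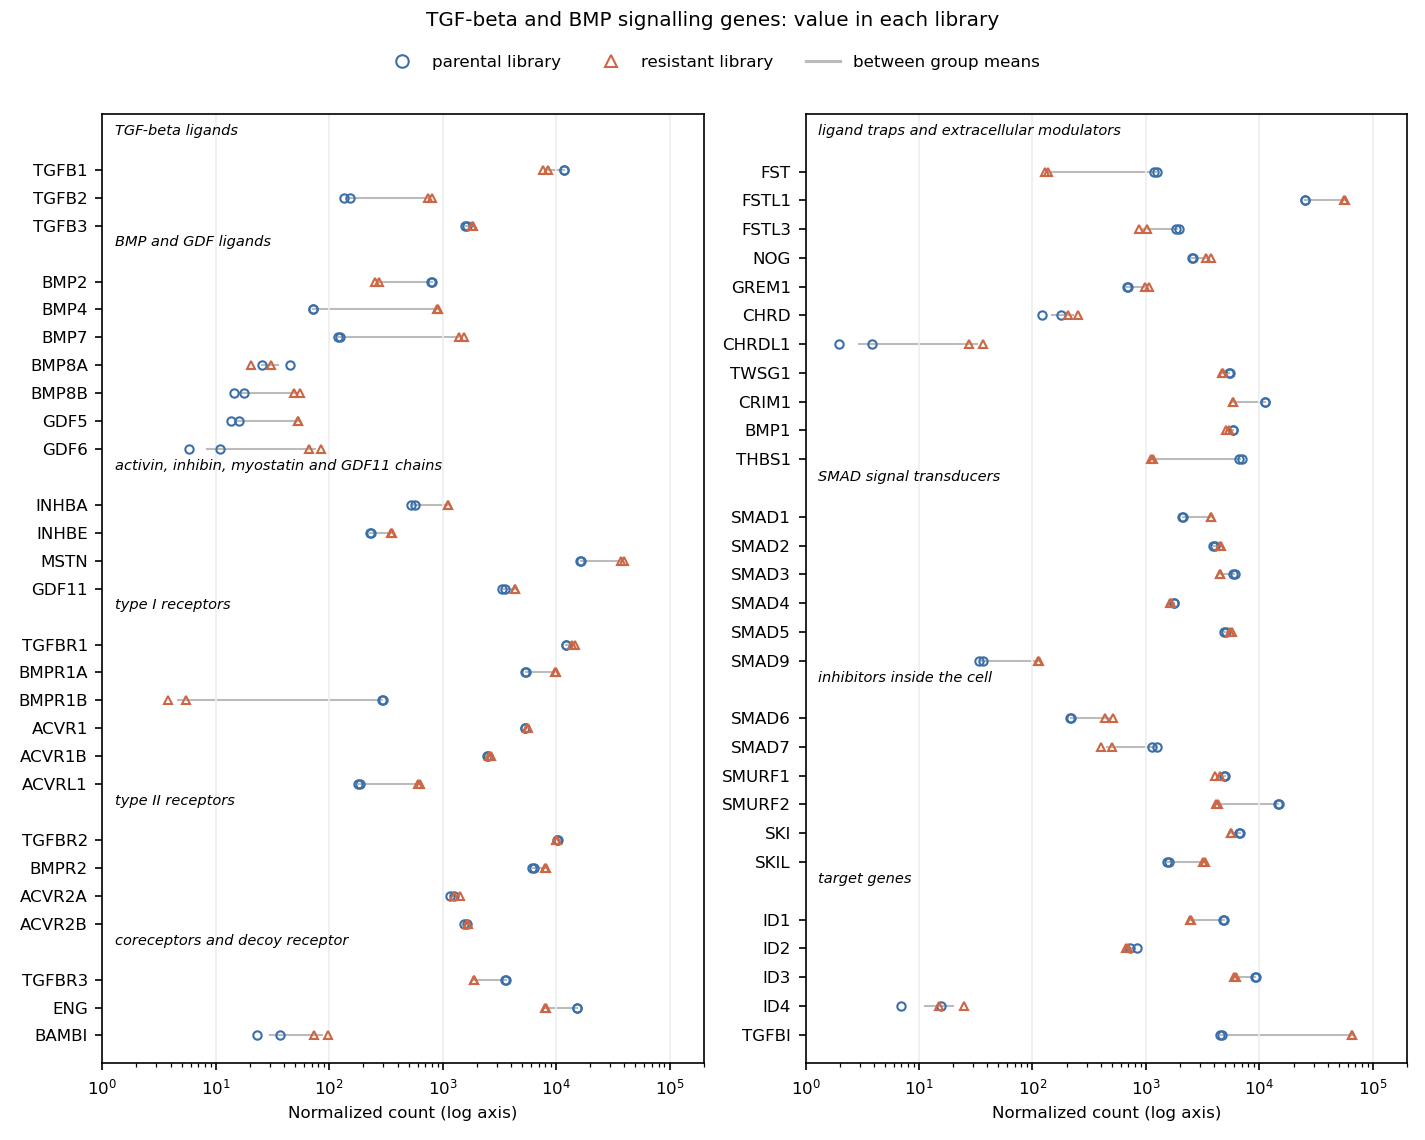
Normalized count (log axis) of each gene in each of the 4 libraries, grouped by role, with circles for parental and triangles for resistant libraries and a line between the group means. The widest separations are those of BMPR1B, from 289 to 297 in parental and 3.82 to 5.41 in resistant libraries, and TGFBI, from 4477 to 4714 and 65953 to 66171.

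The libraries held 58861281 to 67690557 reads over the table's genes, so counting error was small except for genes near the floor of the table. All 55 genes passed the filter of 10 normalized counts in 2 libraries. BMPR1B and CHRDL1 passed through one group alone and so had to differ, and GDF6 and ID4 also had a library under 10. The muscle character given by the cell line label was checked on 14 skeletal muscle markers, of which 12 were measured. Of these, 11 were called higher in resistant cells, where 32.7% of all genes tested were. The summed level of the 12 went from 111708 to 111760 in parental libraries to 205502 to 211026 in resistant libraries. Endothelial markers summed to 975.5 to 1045 and 2496 to 2557 over 4 of 10 genes, with TEK and TIE1 higher, CLDN5 lower and ESAM not called. PECAM1, CDH5, VWF and KDR were not analysed here. Epithelial markers summed to 5182 to 5203 and 15016 to 15170 over 8 of 10 genes, mostly KRT18, with CDH1 under 50 in every library. Fibroblast markers summed to 717163 to 723043 and 524151 to 529062 over 8 of 10 genes. That sum is mostly COL3A1, the only one of the 8 that was called lower, whereas COL1A1, COL1A2, FAP, PDGFRB and THY1 were called higher. Leukocyte markers summed to 88.5 to 107.9 over 4 of 10 genes in any library. The part of these shifts in the results was not tested. In RNA from whole cultures, fewer cells with a transcript and less of it per cell cannot be told apart.

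The TGF-beta ligand genes moved unequally. TGFB1, the most abundant of the 3, had 11842 and 11783 normalized counts in parental and 7649 and 8413 in resistant libraries, a log2 fold change of -0.56 (SE 0.04). With the median of its chromosomal neighbours (-0.33) subtracted, the change of TGFB1 was -0.23. TGFB2, an isoform with a large part in embryonic development, had 135 and 152 in parental and 746 and 811 in resistant libraries, a log2 fold change of 2.43 (SE 0.10, limma adjusted p = 7.52e-18). Both resistant libraries were thus far above both parental ones for TGFB2 and below them for TGFB1. An overlapping noncoding transcript on the same strand, TGFB2-OT1, shares 26.6% of the exonic bases of TGFB2, so part of its count is uncertain. TGFB3 rose by 0.20 (SE 0.05) on the log2 scale. Per kilobase of the longest annotated transcript, the order of levels was TGFB1 (4266 and 2900 normalized counts per kilobase in parental and resistant cells), TGFB3 (589 and 678) and TGFB2 (28.4 and 154). That order was the same in both groups, while the gap between TGFB1 and TGFB2 narrowed.

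Among BMP and growth differentiation factor ligands, 5 of 7 measured genes rose, against 32.7% of all genes tested, BMP2 fell and BMP8A was not called. BMP4, a ligand of mesoderm and muscle precursors, had 71.5 and 71.6 normalized counts in parental and 894 and 909 in resistant libraries (log2 fold change 3.64, SE 0.11, limma adjusted p = 6.02e-21). BMP7 had 124 and 119 in parental and 1394 and 1537 in resistant libraries (3.58, SE 0.09, limma adjusted p = 1.08e-22). These ligands thus went from low to moderate levels together, at 12.6 and 12.1 times the parental mean. BMP2, a close relative of BMP4 that binds the same receptors, moved the other way, from 795 and 810 to 253 and 273 (-1.61, SE 0.08). In parental cells BMP2 was the most abundant of the 7 per kilobase, at 223 against 37.3 for BMP4 and 30.3 for BMP7. In resistant cells it stood at 73.1, below BMP4 at 470 and BMP7 at 365, so the order of these ligands turned over. BMP4 lies on chromosome 14 from 53949736 to 53958761, BMP7 on chromosome 20 from 57168748 to 57266629 and BMP2 on chromosome 20 from 6767664 to 6780280 (GRCh38, GENCODE 29).

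The remaining ligands of that group were scarce. GDF6, a ligand of joint and skeletal patterning, had 5.80 and 10.9 normalized counts in parental and 66.0 and 84.0 in resistant libraries. The ratio of its reads, 149 against 17, was 9.07 when scaled for library size (exact 95% interval 5.48 to 16.0, for counting error only). GDF5, another joint ligand, rose from 13.5 and 15.9 to 53.0 and 53.5 (log2 fold change 1.79, SE 0.30). An antisense gene, GDF5OS, covers 35.2% of the exonic bases of GDF5 and the strand setting of the counting is not given in the sources used here, so sense and antisense reads cannot be separated here. BMP8B rose from 14.5 and 17.9 to 48.7 and 55.4, while its near-identical copy BMP8A had 45.4 and 25.8 against 20.6 and 30.5, with overlapping groups. Reads may have been split between these copies, so both values are uncertain. The log2 fold change of BMP8A was -0.44 (95% confidence interval -1.09 to 0.22). It was -0.83 and called lower with parental replicate 2 left out (limma adjusted p = 0.0401), -0.04 with parental replicate 1 left out, -0.16 with resistant replicate 1 left out and -0.71 with resistant replicate 2 left out (limma adjusted p = 0.0871).

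The activin, myostatin and GDF11 genes, whose products signal through SMAD2 and SMAD3, all rose in the 4 cases measured, where 32.7% of all genes tested were higher. MSTN, which encodes myostatin, the secreted brake on muscle growth, had 16370 and 16659 normalized counts in parental and 39647 and 36914 in resistant libraries (log2 fold change 1.21, SE 0.03, limma adjusted p = 3.75e-22). Most skeletal muscle markers were higher in the same libraries, as given above. At 13565 per kilobase in resistant cells it ranked 206 of 17804 genes, up from rank 666, and had the highest level of any ligand gene of the group in both states. INHBA, the activin A chain, rose from 528 and 567 to 1118 and 1117 (1.03, SE 0.07). INHBE rose by 0.61 (SE 0.10) and GDF11, a close relative of myostatin, by 0.33 (SE 0.04).

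The type I receptor genes split between a near-complete loss and moderate gains. BMPR1B, which binds BMPs and GDF5, had 297 and 289 normalized counts in parental and 5.41 and 3.82 in resistant libraries. That is 598 reads against 9. Scaled for library size, it is 64.2 times fewer (exact 95% interval 33.6 to 141.2, counting error only). The fitted log2 fold change was -5.73. No p-value is given, since the gene passed the filter through the parental libraries alone. The gene, on chromosome 4 from 94757968 to 95158448, thus went from low expression to near the floor. BMPR1A, the other type I receptor of BMP2 and BMP4, rose from 5439 and 5355 to 9988 and 9745 (0.87, SE 0.03). ACVRL1, which encodes ALK1, a receptor best known in endothelium, rose from 186 and 180 to 601 and 633 (1.75, SE 0.09). The endothelial genes TEK and TIE1 were higher in the same libraries and CLDN5 was lower. The TGF-beta receptor gene TGFBR1 rose slightly, from 12258 and 12319 to 14742 and 13903 (0.22, SE 0.03).

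The activin and BMP receptor genes ACVR1 and ACVR1B hardly moved. ACVR1 had 5306 and 5328 in parental and 5696 and 5572 in resistant libraries, a log2 fold change of 0.08 (95% confidence interval 0.01 to 0.16). It was called by limma (adjusted p = 0.0379) but not by DESeq2 (adjusted p = 0.0896), and leaving out any one library except resistant replicate 2 ended the call (limma adjusted p = 0.0528 to 0.234). ACVR1B had 2462 and 2522 against 2557 and 2656 and was not called (0.06, interval -0.02 to 0.15), but it passed when resistant replicate 1 was left out (0.09, limma adjusted p = 0.0462) and with libraries scaled to the same total (0.10, limma adjusted p = 0.0484).

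**Figure D2:**
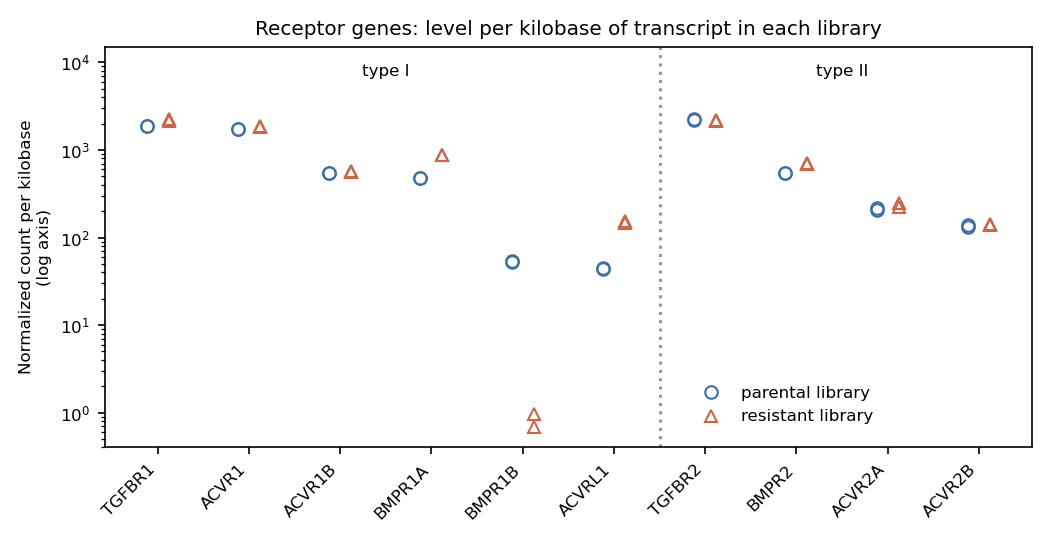
Level of the 6 type I and 4 type II receptor genes in normalized counts per kilobase of the longest annotated transcript (log axis), one symbol per library, circles parental and triangles resistant. BMPR1B falls from 52.6 to 0.829 on average, ACVRL1 rises from 44.4 to 150, and TGFBR2 stays near its parental level (2236 and 2170).

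The type II receptor genes changed little. TGFBR2, the type II receptor of TGF-beta, had 10425 and 10240 normalized counts in parental and 10080 and 9973 in resistant libraries. Its log2 fold change was -0.04 with a 95% confidence interval of -0.11 to 0.02, and it was not called. BMPR2, the BMP type II receptor, rose from 6313 and 6182 to 8168 and 8016 (0.37, SE 0.03). ACVR2A, which binds activin and myostatin, had 1167 and 1246 against 1428 and 1269, with 1 resistant library only just above the parental ones. Its call (0.16, SE 0.06, limma adjusted p = 0.0217) was lost under DESeq2 (adjusted p = 0.0951). It was also lost when parental replicate 1 was left out (0.11, limma adjusted p = 0.240) and when resistant replicate 1 was (0.07, limma adjusted p = 0.266). ACVR2B, which binds the same ligands, had 1636 and 1551 against 1645 and 1680 and was not called (0.06, interval -0.04 to 0.17). Leaving out parental replicate 1 gave 0.10 and leaving out parental replicate 2 gave 0.02, neither called. In the plot of receptor levels the order per kilobase was TGFBR2, BMPR2, ACVR2A and ACVR2B in both groups. Among type I receptors TGFBR1 and ACVR1 led in both groups, at 2198 and 1849 per kilobase in resistant cells, and BMPR1A passed ACVR1B, from 480 against 546 to 877 against 571. These levels depend on the transcript length assumed for each gene.

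Of the coreceptor genes of the group, TGFBR3 and ENG fell, and the decoy receptor gene BAMBI rose from a low level. TGFBR3, or betaglycan, which presents TGF-beta 2 to its receptors, had 3633 and 3524 normalized counts in parental and 1875 and 1882 in resistant libraries, and its log2 fold change was -0.93 (SE 0.04). ENG, or endoglin, a coreceptor that works with ALK1, had 15241 and 15242 against 7895 and 8131 (-0.93, SE 0.03). ENG and its partner ACVRL1 therefore moved in opposite directions. BAMBI, a receptor without kinase domain that blocks signalling, had 23.2 and 36.8 against 73.6 and 97.4 (1.50, SE 0.25).

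All 11 measured genes of ligand traps and extracellular modulators were called, 5 higher and 6 lower, where 66.9% of all genes tested were called. CHRDL1, among those higher, passed the filter through the resistant libraries alone and so had to differ. FST, which encodes follistatin, the main trap of activin and myostatin, had 1189 and 1257 normalized counts in parental and 129 and 137 in resistant libraries (log2 fold change -3.19, SE 0.09, limma adjusted p = 1.58e-21). FSTL3, a second activin and myostatin trap, fell from 1938 and 1854 to 872 and 1019 (-1.01, SE 0.06). The traps encoded by FST and FSTL3 were thus lower in the libraries in which MSTN and INHBA were higher. The other myostatin antagonist genes WFIKKN1 and WFIKKN2 were named after their values were seen. WFIKKN1 was called higher at low counts of 64.9 and 66.8 in resistant libraries (0.68, SE 0.22). WFIKKN2 had 7.73 and 9.94 in parental and 28.1 and 33.4 in resistant libraries. It passed the filter through the resistant libraries alone and so had to differ. FSTL1, a secreted glycoprotein of the same domain family, went the other way, from 25210 and 25417 to 57065 and 56083 (1.16, SE 0.03), and ranked 320 of 17804 genes per kilobase in resistant cells.

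Of the BMP antagonist genes of the group, NOG, GREM1, CHRD and CHRDL1 rose. The rise was moderate for NOG, which encodes noggin (0.47, SE 0.05), GREM1 (0.58, SE 0.06) and CHRD, which encodes chordin (0.63, SE 0.15). CHRD had 180 and 120 in parental and 251 and 207 in resistant libraries, and without parental replicate 2 its log2 fold change was 0.34 and no longer called (limma adjusted p = 0.0602). CHRDL1, a chordin relative, was near the floor in parental cells, with 3.87 and 1.99 against 36.8 and 27.7. It had 63 resistant reads against 6 parental reads. Scaled for library size, the ratio was 10.9 (exact 95% interval 4.72 to 30.7, counting error only). CRIM1, a membrane protein that binds BMPs, fell by a log2 fold change of 0.93 (SE 0.03), and TWSG1, a chordin partner, at -0.20 (SE 0.04). BMP1, the protease that cleaves chordin, was at -0.16 (SE 0.04).

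THBS1, which encodes thrombospondin 1, an activator of latent TGF-beta, had 6979 and 6590 normalized counts in parental and 1157 and 1107 in resistant libraries. Its log2 fold change was -2.58 (SE 0.04, limma adjusted p = 5.64e-26), and every resistant library was far below every parental one. The plot of fold changes sets these genes side by side.

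**Figure D3:**
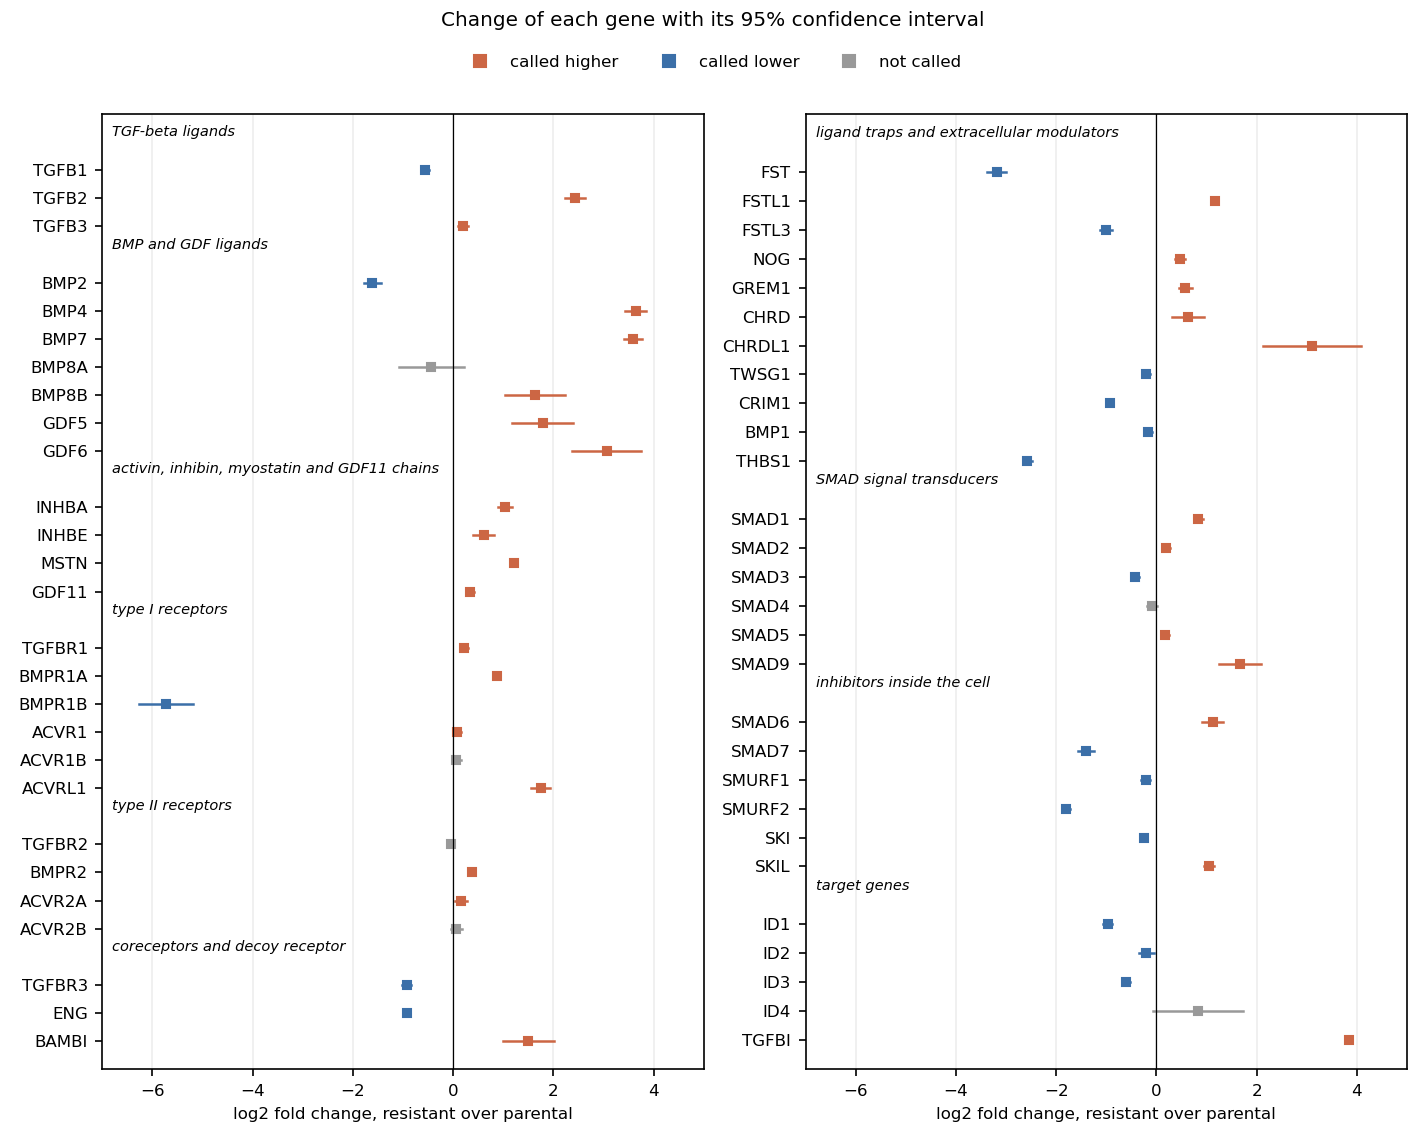
Log2 fold change of resistant over parental cells for each of the 55 genes with its 95% confidence interval from limma, grouped by role, coloured by the call at an adjusted p below 0.05. Intervals are wide for scarce genes such as CHRDL1 (2.13 to 4.09) and narrow for abundant ones such as TGFBI (3.78 to 3.91). CHRDL1 and BMPR1B passed the filter through a single group, so their intervals describe the values and test nothing.

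Of the 6 SMAD transducer genes, the 3 of the BMP branch were called higher, although SMAD5 was lower once the median of its chromosomal neighbours was subtracted, and the TGF-beta branch was divided. Over all genes tested, 32.7% were called higher and 34.2% lower. SMAD1 had 2081 and 2124 normalized counts in parental and 3760 and 3765 in resistant libraries, a log2 fold change of 0.84 (SE 0.04). SMAD5 had 4918 and 5091 against 5772 and 5508 (0.17, SE 0.04). SMAD9, the least abundant, had 36.7 and 33.8 against 113 and 115 (1.66, SE 0.20). In each of these genes both resistant libraries were above both parental ones. SMAD2 had 4099 and 3862 against 4498 and 4585 (0.19, SE 0.04), whereas SMAD3 had 6141 and 5883 against 4505 and 4498 (-0.42, SE 0.04). SMAD4, the shared partner, had 1767 and 1766 against 1639 and 1678 and was not called (-0.09, 95% confidence interval -0.19 to 0.01). Without resistant replicate 2 it was called lower (-0.11, limma adjusted p = 0.0484).

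Of the 6 inhibitors that act inside the cell, 2 rose and 4 fell, where 32.7% of all genes tested were higher and 34.2% lower. SMAD6 and SMAD7, and likewise SKI and SKIL, went in opposite directions, while SMURF1 and SMURF2 were both lower. With the median of their chromosomal neighbours subtracted, SKI (-0.01) and SMURF1 (0.05) were no longer called, and SMURF2 stood at -0.65. SMAD6, which mainly blocks BMP receptors, rose from 218 and 216 to 433 and 517 (log2 fold change 1.12, SE 0.10). SMAD7, which blocks TGF-beta and BMP receptors alike, fell from 1262 and 1123 to 405 and 497 (-1.41, SE 0.08). The groups did not overlap in either gene. SMURF2, a ubiquitin ligase that SMAD7 brings to the receptors, fell from 14631 and 14794 to 4310 and 4165 (-1.80, SE 0.03), and its relative SMURF1 by a log2 fold change of 0.21 (SE 0.04). SKIL, a corepressor of SMAD complexes, rose from 1527 and 1600 to 3300 and 3163 (1.05, SE 0.05), while SKI, of the same family, was at -0.25 (SE 0.03). TRRAP, on the opposite strand, covers 11.7% of the exonic bases of SMURF1.

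Of the 5 target genes, TGFBI rose, ID1, ID2 and ID3 were called lower and ID4 was not called. The shares over all genes tested were 32.7% higher and 34.2% lower. TGFBI, a matrix protein named for its induction by TGF-beta, had 4477 and 4714 normalized counts in parental and 65953 and 66171 in resistant libraries, a ratio of 14.4 and a log2 fold change of 3.85 (SE 0.03, limma adjusted p = 7.60e-33). Per kilobase it went from rank 4375 to rank 194 of 17804 genes. The gene lies on chromosome 5 from 136028895 to 136063818.

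The ID genes, which encode dominant negative partners of helix-loop-helix factors and are direct BMP targets, fell or were not called. ID1 had 4910 and 4788 in parental and 2496 and 2439 in resistant libraries (log2 fold change -0.97, SE 0.04). ID3 had 9073 and 9292 against 5928 and 6215 (-0.60, SE 0.03). Both genes were lower in both resistant libraries. In the same libraries BMP4, BMP7, BMPR1A and SMAD1 were higher, and BMP2 and BMPR1B were lower. ID2 had 719 and 838 against 664 and 690 and was called lower (-0.20, SE 0.07, limma adjusted p = 0.0213). That call was lost without parental replicate 2 (-0.09, limma adjusted p = 0.465), under DESeq2 (adjusted p = 0.103) and with libraries scaled to the same total (limma adjusted p = 0.0515). ID4 was near the floor, with 15.5 and 6.96 against 15.1 and 24.8, overlapping groups and no call (0.83, 95% confidence interval -0.06 to 1.73). It was called higher when parental replicate 1 was left out (1.36, limma adjusted p = 0.0157) and when resistant replicate 1 was (1.17, limma adjusted p = 0.0403), and not called without parental replicate 2 (0.31) or resistant replicate 2 (0.50).

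The sequences upstream of TGFBI and TGFB2, which rose, and of THBS1 and ID1, which fell, are shown to set these changes beside the DNA at the gene starts. They are from RefSeq (GRCh38), plus strand, 5′ to 3′, and end at the RefSeq start or at the GENCODE 29 start where that lies further upstream. Capitals mark GTCTG or its reverse complement CAGAC, which hold the GTCT core bound by SMAD3 and SMAD4, and the GC-rich SMAD motif GGCGCC, on either strand. The windows are chr5:136028738-136028894 (TGFBI), chr1:218345086-218345335 (TGFB2), chr15:39580829-39581078 (THBS1) and chr20:31605039-31605282 (ID1).
TGFBI: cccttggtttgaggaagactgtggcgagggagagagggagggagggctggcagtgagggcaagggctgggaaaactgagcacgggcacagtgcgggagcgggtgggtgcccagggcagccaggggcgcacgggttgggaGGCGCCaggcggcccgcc
TGFB2: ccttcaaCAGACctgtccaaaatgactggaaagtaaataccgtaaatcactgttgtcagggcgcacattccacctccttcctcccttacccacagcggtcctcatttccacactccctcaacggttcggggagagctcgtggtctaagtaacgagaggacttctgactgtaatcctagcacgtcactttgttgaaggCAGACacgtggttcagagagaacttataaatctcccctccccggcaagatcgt
THBS1: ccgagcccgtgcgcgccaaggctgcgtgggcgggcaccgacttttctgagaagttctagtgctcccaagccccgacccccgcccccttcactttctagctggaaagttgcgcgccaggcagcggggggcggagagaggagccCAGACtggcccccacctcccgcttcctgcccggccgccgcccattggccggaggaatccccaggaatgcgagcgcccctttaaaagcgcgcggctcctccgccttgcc
ID1: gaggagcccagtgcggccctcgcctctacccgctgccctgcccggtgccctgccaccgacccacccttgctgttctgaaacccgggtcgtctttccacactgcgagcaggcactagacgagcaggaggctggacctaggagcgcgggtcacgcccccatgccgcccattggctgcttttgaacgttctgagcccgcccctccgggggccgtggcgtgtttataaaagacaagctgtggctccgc
TGFBI held 1 GGCGCC match, TGFB2 2 GTCTG matches, THBS1 1 GTCTG match and ID1 none of either. ID1 and TGFB2 also hold TATAAA, the TATA box motif, in lower case. Of 34788 windows of 250 bases before RefSeq starts, 38.0% held GTCTG on either strand, 16.4% GGCGCC and 10.8% TATAAA. The sequences shown for TGFBI (157 bases) and ID1 (244 bases) are shorter than these windows, so their matches are not on the same scale. RefSeq windows were found for 50 of the 59 genes, 79 windows in all, of which 28 held GTCTG and 21 GGCGCC. The table gives 1 start for each of these 4 genes, which starts were used in these cells was not measured, and a match is a description of the letters alone.

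Several of these genes lie in chromosomal stretches whose genes shifted together, and the plot against chromosomal neighbours gives each gene beside the median of its 20 nearest tested genes. The neighbour median was beyond 0.3 in either direction for 16 of the 55 genes. SMURF2, on chromosome 17 from 64542295 to 64662068, had neighbours at -1.15, and its log2 fold change with that median subtracted was -0.65. BMPR1A on chromosome 10 had neighbours at 0.63 and 0.24 after subtraction, and BMP2 on chromosome 20 had -0.52 and -1.08. These 3 genes moved the same way as their neighbours and kept their calls. So did TGFB1 (neighbours -0.33), ID1 (-0.32) and CRIM1 (-0.32), which stood at -0.23, -0.65 and -0.62 after subtraction. BAMBI, on the short arm of chromosome 10, rose while its neighbours stood at -0.80. The changes of TGFBI (neighbours 0.27), BMP4 (0.16), BMP7 (-0.25), TGFB2 (0.02), BMPR1B (-0.05), FST (0.04) and THBS1 (0.24) were far larger than those of their neighbours. SMAD5 (neighbours 0.48) and BMP1 (neighbours -0.31) changed direction after subtraction, to -0.31 and 0.15, both still called. TGFB3, GDF11, ACVR1, BMPR2, SMURF1, SKI and ID2 were no longer called. ACVR1B became called lower, at -0.14. These p-values take the neighbour median as known, and what moved the neighbours was not tested.

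**Figure D4:**
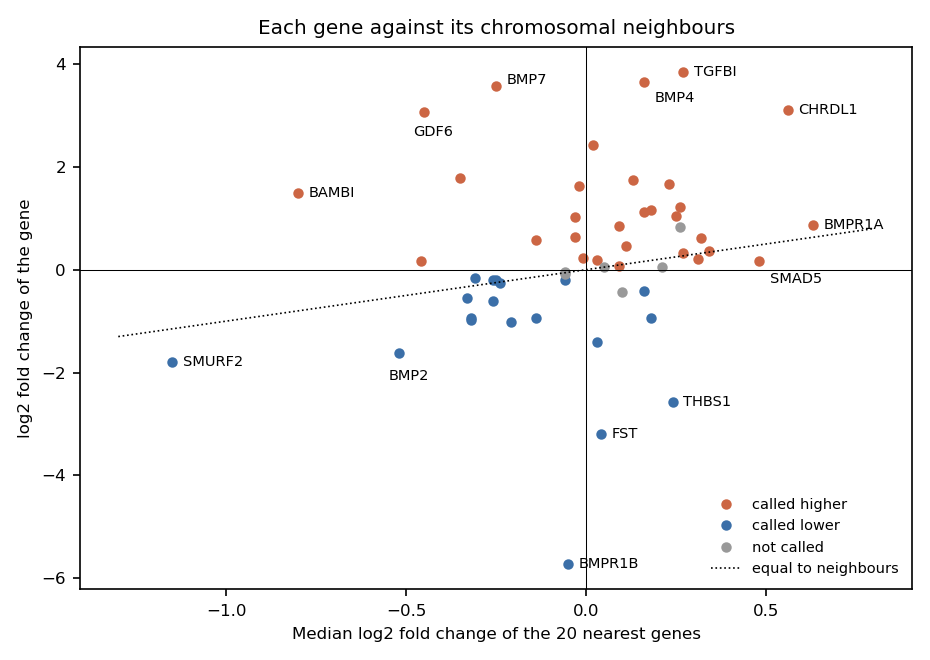
Log2 fold change of each of the 55 genes against the median log2 fold change of the 20 nearest tested genes on its chromosome, coloured by call, with a dotted line where the values are equal. SMURF2 (neighbours -1.15) and BMPR1A (0.63) lie in stretches that moved the same way, while TGFBI, BMP4, BMP7, FST and BMPR1B lie far from it.

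Genes that respond to these pathways were counted from lists that share no gene with the 55. Of 37 measured TGF-beta response genes, 22 were higher, 14 lower and 1 not called, with a median log2 fold change of 0.24. CCN2, which encodes connective tissue growth factor, a classical reporter of the pathway, rose slightly (0.24, SE 0.03). HMGA2, a chromatin protein (1.02, SE 0.03, neighbours at 0.64), the collagen gene COL1A1 (0.74, SE 0.03) and the matrix gene TNC (0.72, SE 0.03) were higher. The cytokine gene IL11 (-1.81, SE 0.07), VEGFA, the vascular growth factor (-1.37, SE 0.05), and the collagen gene COL4A1 (-0.63, SE 0.03) were lower, and COL4A1 has neighbours at -0.67. Of 23 measured BMP response genes, 7 were higher, 13 lower and 3 not called, with a median of -0.20. Among the 7 higher, DLX5 and HEY2 passed the filter through the resistant libraries alone and so had to differ. With the neighbour median subtracted, the counts were 10 higher and 12 lower. For the TGF-beta response genes they were then 23 and 12. The Notch and BMP responsive repressor genes HES1 (1.62, SE 0.07) and HEYL (1.47, SE 0.04) rose, as did HAND2 (3.42, SE 0.19), a transcription factor of limb and heart. ALPL, alkaline phosphatase (-2.14, SE 0.04), TBX2 (-1.35, SE 0.05), UNC5B (-0.62, SE 0.04) and HEY1 (-0.12, SE 0.03) fell, and HEY1 was no longer called with parental replicate 2 left out (limma adjusted p = 0.0673) and stood at 0.14 after subtraction of its neighbours. Many of these genes answer to other pathways too, and the share called over all genes was 66.9% (32.7% higher, 34.2% lower).

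**Figure D5:**
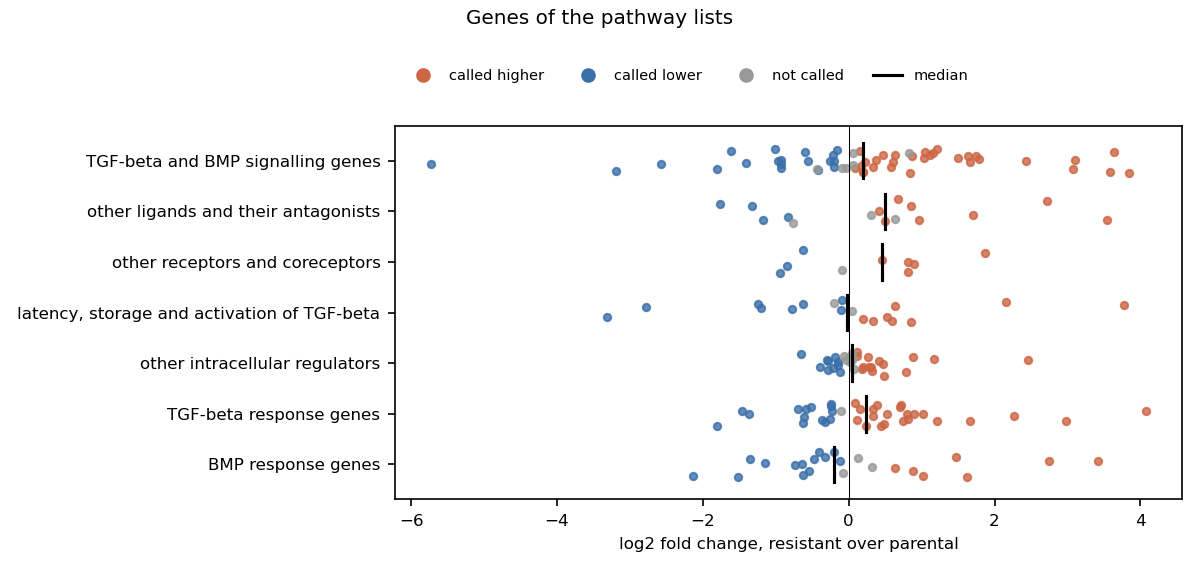
Log2 fold change of each measured gene of the TGF-beta and BMP signalling group and of 6 other pathway lists, one point per gene coloured by call, with a black bar at each list's median. Points spread to both sides of 0 in every list, with medians from -0.20 (BMP response genes) to 0.50 (other ligands and their antagonists).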

How the data were processed

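Poly(A)-selected RNA was sequenced in 2 parental and 2 vincristine-resistant libraries. Groups and replicate numbers came from the sample titles, and the sample descriptions name the column of each. The submitters' processing notes list bcl2fastq 2.17, STAR 2.5.2b, Subread 1.5.2 (featureCounts), DESeq2 and GRCh38. The sources used here do not give the annotation or strand setting. The deposited library columns hold normalized counts (a signal: counts that the authors divided by a size factor for each library): dividing each column by its smallest step gave whole reads for 100% of values (tolerance 0.01). The deposited log2 fold changes and p-values, per the file headers those of resistant against parental cells, were used only as an alternative.

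Genes with at least 10 normalized counts in at least 2 libraries (18330) were tested with limma 3.58.1 (trend) in R 4.3.3 on log2(value + 1), with group as the only term and Benjamini-Hochberg adjustment over all of them. Fold changes on this scale can understate those of scarce genes. Alternatives on recovered reads used edgeR 4.0.16 and DESeq2 1.42.0. Replicate numbers are shared between groups. The deviations of libraries with the same number had a correlation of -0.00397 over 13130 genes, so the numbers were not taken to pair libraries. The scripts were tested on simulated data. Positions, transcript lengths and overlaps came from GENCODE 29 on GRCh38, which holds 96.9% of the genes. Figures used matplotlib.

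The genes and lists were chosen with earlier results of these data known. Values per library are given for called changes of at least 2-fold, receptors, SMAD and ID genes and TGFBI. From other lists up to 6 called genes with the smallest adjusted p and a mean of at least 100 are named, and also CCN2 and HEY1. One further gene that the rule names is not reported here. TGFB1, BMP8A, CHRD and a few marker genes were given in more detail after their values were seen. WFIKKN1, HJV and the list genes that passed the filter through one group alone were also named after their values were seen. In the deposited table CCN2 and HJV are listed under their older symbols CTGF and HFE2, and were matched by gene identifier.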

Additional observations from a re-analysis of the deposited data

How the results depend on the processing

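Of the 55 genes, 37 had the same direction and call under each alternative that could test them. The counts of 30 higher and 19 lower stayed within 1.5 times under each alternative, with the fewest, 23 and 14, both against a change of 1.2-fold (limma treat) and with edgeR's dispersion fixed at 0.01, and 30 and 19 with edgeR's estimated dispersion. DESeq2 gave 28 and 18. The estimated common dispersion of 0.000566 is a coefficient of variation of 2.38%, and the fixed value stands for an assumed wider spread between cultures. Leaving out single libraries gave 28 to 30 higher and 19 to 20 lower, where the lone library of a group is assumed to vary like the others. The replicate block gave 29 and 19, with ACVR1 the only gene of the group whose call it changed (limma adjusted p = 0.07), and over all genes 5926 higher and 6218 lower. Over all genes, 3380 were higher and 3414 lower against 1.2-fold, and 3880 were lower with the fixed dispersion. TGF-beta response genes called lower were 9 in place of 14 in both of these settings. The deposited table's calls for the group were 28 higher and 18 lower. After the neighbour median was subtracted, the sign changed for TGFB3 (-0.10), ACVR1 (-0.01), ACVR1B (-0.14), BMP1 (0.15), SMAD5 (-0.31), SMURF1 (0.05), ID2 (0.05), CTDSP2 (-0.06), COL4A1 (0.04) and HEY1 (0.14), as follows from the subtraction. The filter at 50 left 51 of the 55 genes tested. Depth limits GDF6, CHRDL1, ID4 and the resistant level of BMPR1B.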

Other observations

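Further ligands, storage proteins and regulators of the pathway were counted from other lists, to be read against the 66.9% of all genes tested that were called (32.7% higher, 34.2% lower). The shares called were 80.0% of other ligands and antagonists, 88.9% of other receptors and coreceptors, 88.9% of latency, storage and activation genes and 75.8% of other intracellular regulators, with no test of a difference from all genes. Of 15 measured other ligands and antagonists, 8 were higher, 4 lower and 3 not called (median log2 fold change 0.50). Of those called, LEFTY2, WFIKKN2, FSTL4 and FSTL5 passed the filter through one group alone and so had to differ. With the filter at 50, 8 genes of this list were tested, 7 higher and 1 lower. LEFTY1, an antagonist of nodal signals, had 32.9 and 22.9 normalized counts in parental and 198 and 175 in resistant libraries (2.72, SE 0.21). BGN, which encodes the TGF-beta binding proteoglycan biglycan, rose from 17518 and 16999 to 31152 and 31632 (0.86, SE 0.03). AMH (0.96, SE 0.08), NBL1, a BMP antagonist gene (0.50, SE 0.07), and VASN, a TGF-beta trap gene (0.42, SE 0.06), were higher, and the stress-induced ligand gene GDF15 was lower (-0.83, SE 0.05). Of 9 tested other receptors and coreceptors, 5 were higher, 3 lower and 1 not called (median 0.46). Of the repulsive guidance molecules, which are BMP coreceptors, RGMA rose from 273 and 300 to 1027 and 1074 (1.87, SE 0.08), and RGMB fell from 23532 and 23279 to 15240 and 15064 (-0.63, SE 0.03). HJV, of the same family, was higher (0.81, SE 0.10). The neuropilin genes also parted, NRP2 at 0.81 (SE 0.03) and NRP1 at -0.84 (SE 0.04), the latter among neighbours at -0.76. LRRC32, which holds latent TGF-beta at the cell surface, was higher (0.89, SE 0.08), and its relative NRROS lower (-0.94, SE 0.09).

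Of 18 genes of TGF-beta latency, storage and activation, 8 were higher, 8 lower and 2 not called (median -0.02). MMP9, among those higher, passed the filter through the resistant libraries alone and so had to differ. FBN2, a fibrillin that stores latent complexes, rose from 660 and 678 to 9108 and 9143 (3.77, SE 0.04). ITGB8, whose integrin activates latent TGF-beta, fell from 4838 and 4822 to 501 and 470 (-3.31, SE 0.05). The proprotein convertase gene PCSK5 (-2.78, SE 0.09) and the latent TGF-beta binding protein gene LTBP1 (-1.25, SE 0.03) were lower as well, and LTBP2 was higher (0.85, SE 0.04). ITGB1 was lower (-0.78, SE 0.03), as were its neighbours (-0.76). Among 33 other intracellular regulators, 15 were higher, 10 lower and 8 not called (median 0.05). FOXO1 (1.17, SE 0.07), the phosphatase genes CTDSPL (0.88, SE 0.04) and CTDSP2 (0.48, SE 0.03), LEMD3, a nuclear membrane protein that binds SMADs (0.78, SE 0.04), and SP1 (0.47, SE 0.04) were higher, with neighbours of CTDSP2 and LEMD3 at 0.54 and 0.55. FKBP1A, which binds type I receptors, was lower (-0.66, SE 0.03).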
